A study of Mus musculus with 8 samples.

Results

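The mitochondrial ribosomal proteins were examined as the genes whose symbols in the platform annotation begin with Mrpl (large subunit) or Mrps (small subunit) followed by a number. Of 18193 genes named by the annotation, 76 met this rule, 47 of the large and 29 of the small subunit, and they were read by 156 of 34945 named probe sets. Epididymal white fat of male C57BL/6 littermates, 12 weeks old and on standard chow, gave the RNA. The 4 LPA4-KO mice lacked a functional Lpar4 gene, which is X-linked (Lpar4 -/Y), and the 4 WT mice were wild type. The allele is not described in the labels as limited to a cell type, and each animal gave 1 Affymetrix 3′ expression array. The comparison asked how the genes of the mitochondrial ribosome differ in this fat depot when LPA4, which senses lysophosphatidic acid at the cell surface, is deficient.

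The mitochondrial ribosome translates the few membrane proteins of the respiratory chain and ATP synthase that are encoded in mitochondrial DNA. All of its proteins are encoded in the nucleus, made in the cytosol and imported. The small subunit binds and decodes the messenger RNA, and the large subunit holds the peptidyl transferase centre, the stalk that recruits translation factors and the exit tunnel. Some proteins descend from those of bacterial ribosomes and others are found only in mitochondria. White adipocytes depend on mitochondria for the citrate and ATP used in fat synthesis.

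Values below are log2 as deposited. A group mean is followed by its SD (n = 4), a difference (LPA4-KO minus WT) by its SE. Unless stated otherwise, the SE comes from the limma fit of all genes, or of all probe sets for a single probe set. At probe set 1452424_at the targeted gene Lpar4 was lower in LPA4-KO mice (5.80 ± 0.05 against 6.52 ± 0.03, difference -0.71 ± 0.03, limma adjusted p over all probe sets = 0.0033), and its other probe sets, 1434186_at (0.68 ± 0.24) and 1439665_at (0.48 ± 0.25), did not pass. The part of Lpar4 that each probe set reads relative to the deletion is not given in the sources used here. Of 8 adipocyte markers 6 were measured, all above 96.1% of named probe sets, and the 7 measured markers of epididymis and testis lay between the 12.0 and 48.6 percentiles and were nearly constant. In bulk tissue, fewer cells of a type and less RNA per cell cannot be told apart.

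Most probe sets of the mitochondrial ribosome were nearly constant over the 8 arrays. Of 156 member probe sets, 31 (19.9%) had a range over the 8 arrays above 0.1 log2, beside 19.1% of all named probe sets. Their median range was 0.38 log2, and that of the remaining 125 was 0.00046 log2. Members just inside the limit were Mrpl39 at 1417966_at (range 0.11) and Mrpl49 at 1423219_a_at (0.13), and members just outside were Mrpl13 at 1460354_a_at (0.027) and Mrpl51 at 1416877_a_at (0.020). No member lay between 0.027 and 0.112 log2. The varying probe sets belonged to 25 genes, 16 of the large and 9 of the small subunit. The median of probe set means was 8.80 in varying and 7.79 in nearly constant member probe sets. High signal did not go with variation throughout, however. A mean above 9 was found in 19 of the 125 nearly constant member probe sets and in 11 of the 31 varying ones. A flat value is therefore given only as a value and not as evidence that a gene was unaltered. Of the 31 varying probe sets, 24 spanned over 0.1 log2 within both genotypes, 5 within one only and 2 in neither, so the last pass the limit through the difference between genotypes. These last are Mrpl39 at 1417966_at and Mrpl49 at 1423219_a_at.

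**Figure D1:**
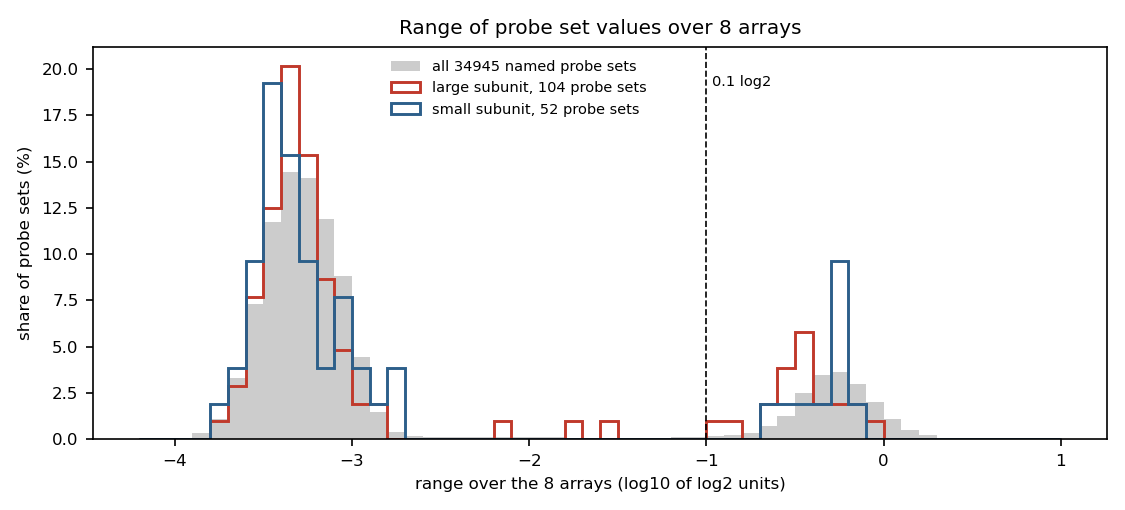
Share of probe sets (%) by range over the 8 arrays (x axis, log10 of the range in log2 units), for all 34945 named probe sets (grey), 104 large-subunit (red) and 52 small-subunit probe sets (blue). Member ranges lie mostly far to the left of the dashed 0.1 log2 limit, with 31 of 156 to its right.

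With 1 probe set per gene, the one of highest mean, 23 of the 76 genes varied in this reading (14 large, 9 small). In 21 of the 23 the difference was positive, from 0.00 to 0.45 log2, and in Mrpl17 and Mrps6 it was negative (-0.05 and -0.04). No member passed an adjusted p of 0.05 in the limma fit of all 18193 genes, where 1.31% of genes were called (0.863% higher, 0.451% lower), and the plain equal-variance test called 2 (0.879% of genes). At an unadjusted p under 0.05 there were 17 members (22.4%, beside 17.6% of all genes), 11 of them varying, and the smallest limma adjusted p was 0.052, for Mrpl12. In the limma fit of the 4029 varying genes alone, 7 members were called, all higher in LPA4-KO mice: Mrps18a, Mrpl12, Mrpl2, Mrpl39, Mrpl41, Mrps22 and Mrpl49. They are 30.4% of the 23 varying members, beside 21.3% called among all varying genes (9.78% higher and 11.5% lower). The limit on range reads the same values as the comparison, so these counts describe the varying members and do not extend to the others. Without 1 array the count was 3, 3, 5 and 2 (LPA4-KO replicate 1, 2, 3 or 4 left out) and 7, 6, 3 and 2 (WT replicate 1, 2, 3 or 4 left out), while 10.1% to 21.0% of varying genes were called. The count over all genes was 2 without WT replicate 1 and 0 without any other array.

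**Figure D2:**
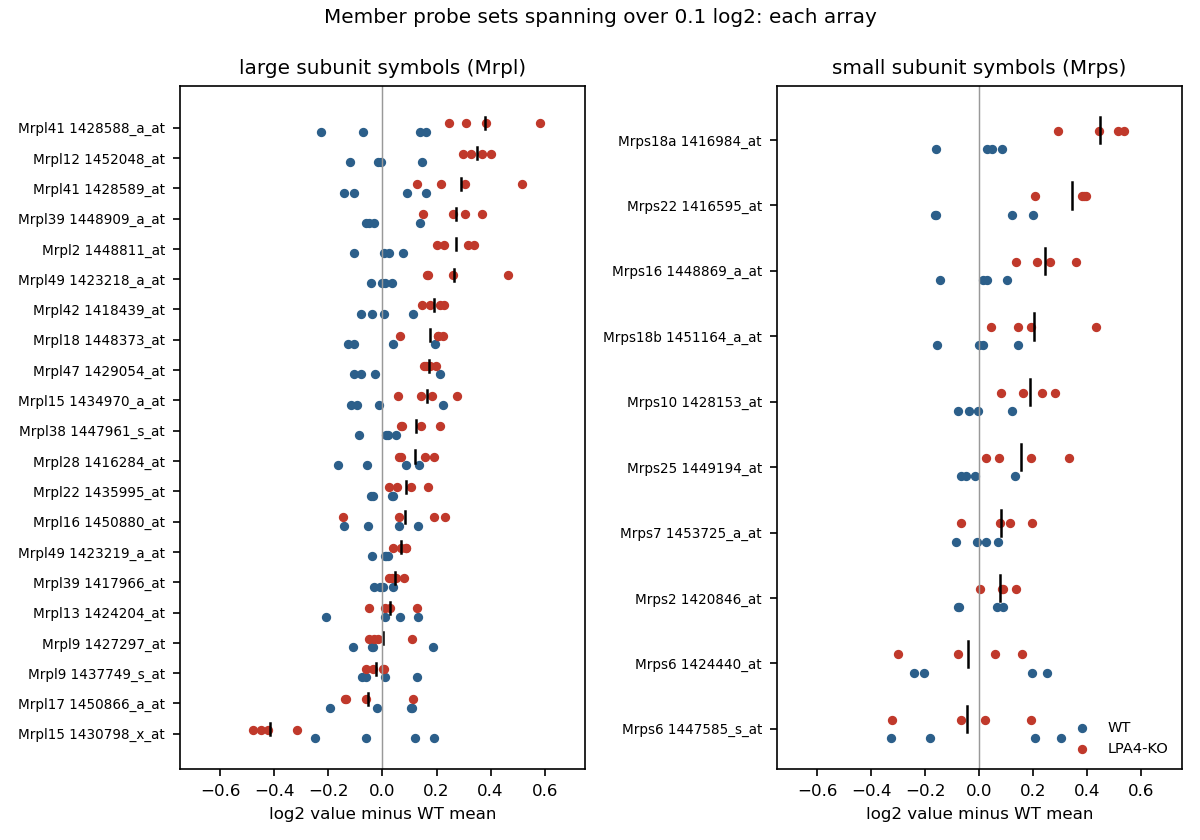
The 31 varying member probe sets, each array as its log2 value minus the WT mean of that probe set (x axis), with LPA4-KO arrays in red, WT arrays in blue and the LPA4-KO mean as a black bar. In 26 probe sets the LPA4-KO mean lies to the right of 0 and in 5 to the left, with Mrpl15 at 1430798_x_at farthest to the left.

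Among large-subunit proteins with bacterial relatives, Mrpl12 and Mrpl2 had the largest differences. Mrpl12 encodes the stalk protein that contacts translation factors, and its product also binds the mitochondrial RNA polymerase. Its values were 8.95, 9.02, 9.05 and 8.98 in LPA4-KO mice and 8.80, 8.64, 8.63 and 8.53 in WT mice. All LPA4-KO arrays lay above all WT arrays, and the nearest was WT replicate 1. The difference was 0.35 ± 0.06 (1.27-fold, limma adjusted p = 0.052 over all genes and 0.014 in varying genes). Mrpl12 had adjusted p = 0.038 over all genes without WT replicate 1, 0.041 after median centring and 0.027 with array weights. Over its alternatives, the fit of varying genes included, the adjusted p ran from 0.014 to 0.156.

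Mrpl2 encodes a protein at the core of the large subunit beside the peptidyl transferase centre. Its values were 8.87, 8.90, 8.99 and 9.01 in LPA4-KO mice and 8.70, 8.57, 8.75 and 8.68 in WT mice, again without overlap. The difference was 0.27 ± 0.05 (1.21-fold, limma adjusted p = 0.063 over all genes and 0.024 in varying genes). Mrpl18, Mrpl22, Mrpl16, Mrpl13, Mrpl9 and Mrpl17, also with bacterial relatives, did not pass in either fit, and their groups overlapped. Mrpl18, a protein of the central protuberance, differed by 0.18 ± 0.08, with WT replicate 1 at 8.90 among the LPA4-KO values of 8.77 to 8.93. Mrpl22, which lines the exit tunnel, differed by 0.09 ± 0.04 and Mrpl16 by 0.08 ± 0.10. Mrpl13 (0.03 ± 0.08), Mrpl9 (0.00 ± 0.07) and Mrpl17 (-0.05 ± 0.09) had differences smaller than their SE. Mrpl28 varied only at 1416284_at, which does not represent the gene, with 0.12 ± 0.07.

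The upstream sequences of the 3 varying members with the smallest p over all genes are shown because these genes lead the comparison and their starts are listed by RefSeq. They are given 5′ to 3′ on the strand of the gene in build GRCm38.p6 and end at the base before the start. Mrpl12 is at chr11:120484387-120484636 (+), Mrps18a at chr17:46110754-46111003 (+), and Mrpl2 at chr17:46646080-46646236 (+), shortened at the start of the opposite gene Klc4. No base is in capitals here, because none of the 4 motifs searched lies in these stretches.
Mrpl12: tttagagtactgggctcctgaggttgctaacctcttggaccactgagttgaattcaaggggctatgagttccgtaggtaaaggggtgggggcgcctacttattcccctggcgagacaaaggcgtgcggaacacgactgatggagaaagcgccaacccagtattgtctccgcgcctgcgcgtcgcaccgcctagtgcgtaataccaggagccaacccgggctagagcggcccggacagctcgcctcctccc
Mrps18a: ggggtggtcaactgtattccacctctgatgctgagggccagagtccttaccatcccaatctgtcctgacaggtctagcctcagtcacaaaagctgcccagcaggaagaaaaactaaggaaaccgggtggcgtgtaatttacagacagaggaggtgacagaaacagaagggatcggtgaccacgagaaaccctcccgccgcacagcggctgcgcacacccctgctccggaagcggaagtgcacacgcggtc
Mrpl2: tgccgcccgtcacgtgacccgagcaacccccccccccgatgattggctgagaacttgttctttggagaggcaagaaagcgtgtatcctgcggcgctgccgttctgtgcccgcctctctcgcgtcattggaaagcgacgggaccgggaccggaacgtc

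The exact letters of 4 motifs linked to nuclear control of mitochondrial genes were searched on both strands from 250 bases before to 50 after the start, in the RefSeq table that matched 67 of the 76 members. CCGGAAGT, an ETS motif bound by GABPA, was in 12 members (17.9%, beside 4.31% of 27025 genes). AAGATGGCG, a YY1 motif, was in 8 (11.9%, beside 1.64%), the NRF1 motif, whose letters are the capitals of the Mrpl39 stretch, in 3 (4.48%, beside 1.07%), and CAAGGTCA, bound by oestrogen-related receptors, in 2 (2.99%, beside 1.76%). Among the 22 varying members with an entry, 2, 2, 2 and 0 held these motifs in that order, and among the 45 nearly constant members 10, 6, 1 and 2 did. A match is a string of letters in this window and not a measured site. The 6 varying members with a match are shown as stretches of 30 bases with the motif in capitals, 5′ to 3′ on the strand of the gene.
Mrpl39 (NRF1, chr16:84735350-84735379, -): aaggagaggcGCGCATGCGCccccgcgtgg
Mrpl9 (NRF1, chr3:94443298-94443327, +): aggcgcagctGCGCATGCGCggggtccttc
Mrps22 (GABPA, chr9:98601672-98601701, -): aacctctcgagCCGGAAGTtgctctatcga
Mrpl18 (GABPA, chr17:12916312-12916341, -): actgaaaacgCCGGAAGTagggggctgcgg
Mrps18a (YY1, chr17:46111005-46111034, +): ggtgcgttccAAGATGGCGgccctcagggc
Mrpl42 (YY1, chr10:95501903-95501932, -): agattgaagcAAGATGGCGagcgcgcggtg
Members with and without a match stood at both ends of the differences. Mrps18a, Mrps22 and Mrpl39 carried a match and were called in varying genes, Mrpl9 carried one with a difference of 0.00, and Mrpl12, Mrpl2, Mrpl41 and Mrpl49 carried none.

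Of the 67 members with an entry, 22 (32.8%) had the start of another gene on the opposite strand within 500 bases upstream, beside 10.9% of 27025 genes. Mrpl46 and Mrps11 were such a pair, with starts 42 bases apart, and both were nearly constant. Among varying members the neighbours were Tcp1 for Mrpl18, Klc4 for Mrpl2, Ndufb5 for Mrpl47, Fau for Mrpl49 and Gga3 for Mrps7. Each of these 5 neighbours was nearly constant at its representing probe set, also Ndufb5, a complex I gene, at 10.35 in both genotypes.

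A further set of varying large-subunit members was formed by Mrpl41, Mrpl39, Mrpl49, Mrpl42, Mrpl38 and Mrpl47. Mrpl41, which encodes a protein near the exit tunnel, was read by 2 varying probe sets. At 1428588_a_at it stood at 9.80, 9.87, 9.73 and 10.07 in LPA4-KO mice and at 9.65, 9.63, 9.26 and 9.41 in WT mice, without overlap. The difference was 0.38 ± 0.11 (1.30-fold, limma adjusted p = 0.163 over all genes and 0.037 in varying genes). At 1428589_at it was 0.29 ± 0.11, and WT replicate 1 (9.35) lay above LPA4-KO replicate 3 (9.32). A further probe set of Mrpl41, 1428590_at, was nearly constant.

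Mrpl39, whose protein resembles a part of threonyl-tRNA synthetase, had values of 10.11, 10.17, 9.96 and 10.07 in LPA4-KO mice and 9.78, 9.95, 9.76 and 9.75 in WT mice. WT replicate 2 stood apart from the other WT arrays and close to LPA4-KO replicate 3. The difference was 0.27 ± 0.06 (limma adjusted p = 0.097 over all genes and 0.033 in varying genes), and at the second probe set, 1417966_at, it was 0.05 ± 0.02 with overlapping groups. Mrpl49 had 8.60, 8.40, 8.31 and 8.30 against 8.17, 8.15, 8.14 and 8.09. The spread lay in the LPA4-KO group, where replicate 1 was highest. Its difference was 0.26 ± 0.07 (limma adjusted p = 0.124 over all genes and 0.042 in varying genes). At 1423219_a_at it was 0.07 ± 0.02, also without overlap. That probe set passed the limit on range only through the difference between genotypes.

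Mrpl42 and Mrpl38 were separated between genotypes without passing in either fit. Mrpl42 stood at 9.56, 9.53, 9.50 and 9.58 in LPA4-KO mice and 9.28, 9.31, 9.47 and 9.36 in WT mice (0.19 ± 0.04, limma adjusted p = 0.095 over all genes and 0.062 in varying genes). Mrpl38, a protein of the central protuberance, differed by 0.12 ± 0.04 at 1447961_s_at. The other probe sets of Mrpl42 and Mrpl38 were nearly constant. Mrpl47 had LPA4-KO values within 8.41 to 8.46, while WT replicate 1 was at 8.47 and the other WT arrays at 8.24, 8.18 and 8.15. Its difference was 0.17 ± 0.07 (limma adjusted p = 0.284 over all genes and 0.138 in varying genes). Without WT replicate 1, the array above all LPA4-KO values, it was 0.24 (limma adjusted p = 0.037 over all genes). With any other single array left out Mrpl47 did not pass over all genes. Its other probe sets were nearly constant.

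In the small subunit Mrps18a and Mrps22 had the largest differences. Mrps18a is 1 of 3 mammalian relatives of a bacterial small-subunit protein, and structural work has placed its product in the large subunit, so that 1 of the 2 small-subunit calls belongs there by position. Its values were 9.01, 8.94, 8.78 and 9.03 in LPA4-KO mice and 8.52, 8.54, 8.58 and 8.34 in WT mice. All LPA4-KO arrays were above all WT arrays. The difference, 0.45 ± 0.07 (1.36-fold), was the largest of the 76 genes, with limma adjusted p = 0.054 over all genes and 0.011 in varying genes. Of its relatives, Mrps18b had 0.20 ± 0.10 with overlapping groups, and Mrps18c was nearly constant at 9.38 and 9.37.

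Mrps22, a mitochondria-specific protein whose inherited defects cause mitochondrial disease, had 8.40, 8.39, 8.21 and 8.38 in LPA4-KO mice and 8.12, 8.20, 7.84 and 7.84 in WT mice. The highest WT array, replicate 2, lay next to LPA4-KO replicate 3. The difference was 0.34 ± 0.10 (1.27-fold, limma adjusted p = 0.159 over all genes and 0.039 in varying genes). Mrps16, a protein of the small-subunit body, had 9.62, 9.49, 9.57 and 9.71 against 9.46, 9.39, 9.37 and 9.21. The groups did not overlap, but the gene passed in neither fit (0.24 ± 0.07, limma adjusted p = 0.144 and 0.052).

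The groups overlapped in the 6 other varying small-subunit members, among them Mrps18b. Mrps10, a head protein, differed by 0.19 ± 0.06, with WT replicate 2 (8.89) above LPA4-KO replicate 1 (8.85). Mrps25 differed by 0.15 ± 0.08, Mrps2 by 0.08 ± 0.05, and Mrps7, another head protein, by 0.08 ± 0.06. Mrps6 had the widest spread within genotypes, from 9.54 to 10.05 in LPA4-KO and from 9.54 to 10.17 in WT mice, and a difference of -0.04 ± 0.18. Its second probe set, 1424440_at, gave -0.04 ± 0.16 and ordered the arrays in a like way, with LPA4-KO replicate 1 and WT replicates 1 and 2 low in both.

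The subunits, taken by symbol, were not tested against each other. Mrps18a, placed in the large subunit by structural work, is counted as small here. Whether the symbols of the other members match the place of their proteins was not checked. No order is therefore read from the subunit medians or counts. Over the varying genes the median was 0.17 log2 in 14 large-subunit genes and 0.19 in 9 small-subunit genes, beside -0.03 in all 4029 varying genes, of which 46.6% were positive. In varying genes 5 large and 2 small members were called. Groups did not overlap in 10 of the 23 varying members (43.5%), all higher, 7 large and 3 small, beside 28.9% of varying genes (14.4% higher, 14.5% lower). Over all 76 members groups did not overlap in 24 (31.6%), all higher, beside 13.3% of genes (7.88% higher, 5.46% lower). Over all 76 members the median was 0.00022 log2, close to the values of nearly constant genes.

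The 53 nearly constant members differed by at most 0.0074 log2. Of these, 49 (92.5%) had a positive difference, 31 of 33 large and 18 of 20 small, beside 60.6% of 14164 nearly constant genes. Groups did not overlap in 14 (26.4%), all higher, beside 8.93% of nearly constant genes (6.04% higher, 2.89% lower). The exceptions in sign were Mrps34, Mrpl44, Mrps24 and Mrpl33. Mrps14, the largest of the non-overlapping ones, had 10.183 against 10.182, and Mrpl51 had 10.667 against 10.659. Another scaling shifted the median gene by 0.0044 to 0.0053 log2, which is of the size of the largest of these differences, so no direction is read from them. Mrps34 turned positive under quantile normalization (0.013) and median centring (0.0043), and Mrps14 turned negative under quantile normalization (-0.0034).

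Several members were read by probe sets that did not show the same picture. Of 42 genes with several probe sets, 27 were nearly constant at all, 12 varied at some only and 3 varied at all. Mrpl15 had 8 probe sets, more than any other member. Its representing probe set, 1435232_x_at, was nearly constant at 9.42. At 1434970_a_at the gene had 8.26, 8.22, 8.13 and 8.35 in LPA4-KO mice and 8.30, 8.06, 7.96 and 7.98 in WT mice (0.16 ± 0.09). At 1430798_x_at it had 5.90, 6.03, 5.87 and 5.93 against 6.54, 6.47, 6.10 and 6.29. This was the only varying member probe set with every LPA4-KO array below every WT array (-0.42 ± 0.10, limma adjusted p over all probe sets = 0.12). The ending _x_at marks probe sets whose probes may bind other transcripts. Over all 156 member probe sets 0 were called by limma, beside 0.933% of named probe sets (0.612% higher, 0.321% lower), and 36 (23.1%) had an unadjusted p under 0.05, beside 16.9% of named probe sets. The plain equal-variance test called 1, beside 0.412% of named probe sets. Of 31 varying member probe sets, 11 were higher and 1 lower without overlap, beside 28.2% of varying named probe sets (12.9% higher, 15.4% lower). The 11 include Mrpl49 at 1423219_a_at, which passed the limit on range only through the difference between genotypes. Of the 125 nearly constant member probe sets, 25 did not overlap, all higher except Mrpl11 at 1438080_at and Mrpl19 at 1421913_at. Of the 34945 named probe sets 6682 varied, and 2469 of the nearly constant rest did not overlap. By gene the share was 8.93% of nearly constant genes. Over all named probe sets, the varying ones included, 12.5% did not overlap (6.75% higher, 5.71% lower).

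Other genes of mitochondrial translation were also mostly positive where they varied. Of 70 listed factors, tRNA synthetases, assembly factors and ribosomal proteins with other symbols, 63 were measured, 12 varied and 10 of these were positive, with a median of 0.19 log2, beside 46.6% positive among all varying genes. In the fit of all genes 3 of 63 rose and 0 fell, beside 0.863% of genes called higher and 0.451% called lower. Gfm1, an elongation factor of mitochondrial translation, had 8.50, 8.47, 8.50 and 8.60 against 8.27, 8.22, 8.22 and 8.20 (0.29 ± 0.03, limma adjusted p = 0.024). Lrpprc, which stabilises mitochondrial messenger RNA, differed by 0.39 ± 0.05 (limma adjusted p = 0.036). Dap3, a small-subunit protein with a symbol outside the rule, differed by 0.23 ± 0.03 (limma adjusted p = 0.041). The count fell to 1 without LPA4-KO replicate 4 or WT replicate 1 and to 0 without any other single array. In the fit of varying genes 5 of the 12 were called (41.7%), all higher, beside 9.78% of varying genes called higher. With the SE of that fit, Lars2, the mitochondrial leucyl-tRNA synthetase (0.23 ± 0.07), passed too. So did Ptcd3, another small-subunit protein (0.24 ± 0.07), and Noa1, an assembly factor, did not (0.21 ± 0.07, limma adjusted p = 0.069).

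Respiratory chain and ATP synthase genes, chosen by symbol, varied in 58 of 83 (69.9%), where the mitochondrial ribosome had 23 of 76 (30.3%), beside 22.1% of all genes. Their median over varying genes, 0.16 log2, lay near the 0.18 of mitochondrial ribosomal proteins. Of the 58, 57 were positive and 26 were higher without overlap, beside 14.4% of varying genes. In the limma fit of all genes 6 of the 83 were called, all higher, beside 0.863% of genes. In the fit of varying genes 16 of the 58 were called (27.6%), all higher, beside 9.78% called higher. Cytosolic ribosomal proteins varied in 15 of 46 (32.6%), and 14 of the 15 were negative with a median of -0.09 log2. The lists were not tested against each other.

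**Figure D3:**
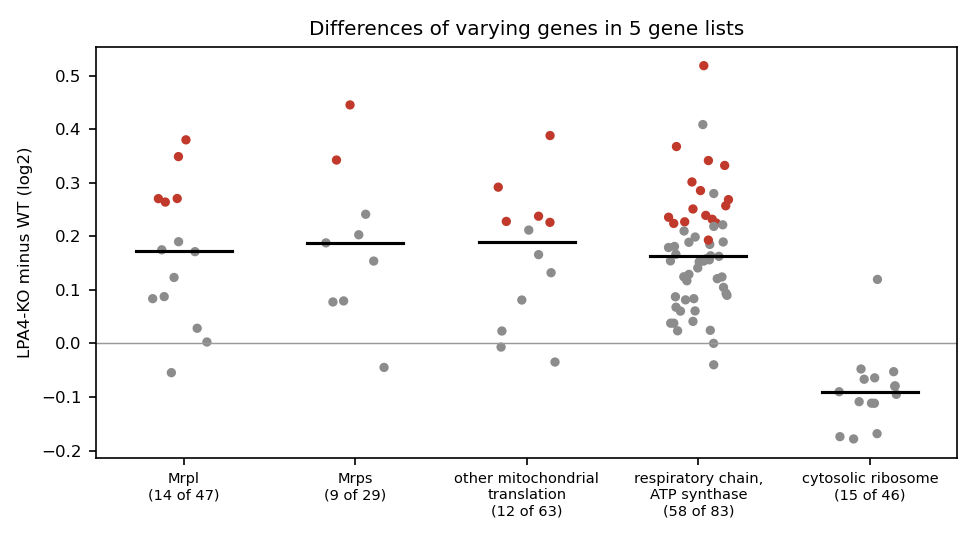
Difference between genotypes (LPA4-KO minus WT, log2) of each varying gene in 5 lists, with the median as a bar, genes called in the limma fit of varying genes in red and the others in grey. Labels give varying genes of measured genes, and medians are 0.17 for Mrpl, 0.19 for Mrps and other translation genes, 0.16 for respiratory chain and -0.09 for cytosolic ribosome.

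Averaged over the 23 varying members, the LPA4-KO arrays stood 0.19, 0.17, 0.13 and 0.21 log2 above the WT mean and the WT arrays at 0.03, 0.03, 0.01 and -0.07. The groups did not overlap in this mean, and this was not particular to the mitochondrial ribosome. Respiratory chain means were 0.11 to 0.25 in LPA4-KO and -0.08 to 0.05 in WT arrays. Means of other mitochondrial translation genes were 0.14 to 0.22 against -0.05 to 0.05. Cytosolic ribosome means were lower without overlap, -0.12 to -0.07 against -0.01 to 0.02. LPA4-KO replicate 3 was the lowest of its group in 14 of the 31 varying probe sets and LPA4-KO replicate 4 the highest in 13. WT replicate 1 was the highest WT array in 14 and WT replicate 4 the lowest in 12. The WT arrays did not keep this order in the respiratory chain genes, where WT replicate 1 was lowest (-0.08) and WT replicate 4 highest (0.05).

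**Figure D4:**
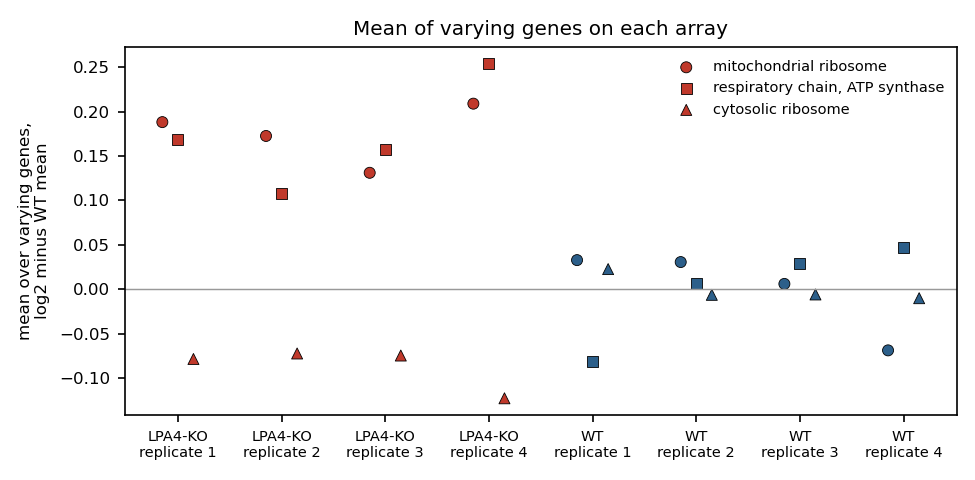
Mean over varying genes on each array, as log2 minus the WT mean, for the mitochondrial ribosome (circles), respiratory chain and ATP synthase (squares) and cytosolic ribosome (triangles), with LPA4-KO in red and WT in blue. Mitochondrial ribosome means lie between 0.13 and 0.21 in LPA4-KO and between -0.07 and 0.03 in WT arrays.

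Mean levels of markers of some other cells of the fat pad were lower in LPA4-KO mice, and some of these markers passed. All 7 measured mesothelial markers varied with negative differences (3 called lower in the fit of varying genes), with mean levels of 7.59 to 8.14 against 7.99 to 8.84 in WT mice. Of 8 macrophage markers 7 varied, all with negative differences (2 called lower), with 9.91 to 10.08 against 10.04 to 10.34, and all 7 measured progenitor and fibroblast markers had negative differences (2 called lower, and 1 in the fit of all genes), with 9.52 to 9.91 against 9.93 to 10.28. The mesothelial, macrophage and progenitor calls were 42.9%, 28.6% and 28.6% of the varying markers, beside 11.5% of varying genes called lower. In the fit of all genes 0.451% of genes were called lower. Adipocyte markers had mean levels of 12.30 to 12.36 against 12.15 to 12.40. Of 6 measured, 4 varied and 0 were called in either limma fit. Positive were Retn (0.18 ± 0.06, without overlap), Cidec (0.17 ± 0.07) and Lipe (0.12 ± 0.12), and negative was Lep (-0.32 ± 0.36). Endothelial markers had 8.42 to 8.54 against 8.46 to 8.56, with 1 positive and 1 negative varying marker. Of these, 0 were called in either limma fit (1 of 6 had an unadjusted p under 0.05). No marker is at 0 on this scale. The part of these levels in the differences of mitochondrial ribosomal proteins was not tested.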

How the data were processed

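The authors deposited 1 log2 value per probe set and array. R 2.14.0 is named in the submitters' processing notes. For background correction, normalization and summarisation, the method is not given in the sources used here. Nor is the log base, taken as 2 from the range of values (5.27 to 14.07). Names came from the platform annotation, and 4 that name a member together with another gene were left out. Groups came from the labels, which name biological replicates. Each gene took its probe set with the highest mean. The fit used R 4.3.3 and limma 3.58.1 (lmFit, eBayes with a trend, no block, Benjamini-Hochberg adjustment over the whole table), tested on simulated data. Named are all members with a probe set over 0.1 log2, those next to that limit, the 4 with the highest mean (Mrpl51, Mrps14, Mrpl39, Mrps34) and, of other lists, called genes. Noa1, promoter neighbours and the 30-base stretches were chosen after their values were seen. Members and lists were chosen with earlier results of these data known. Alternatives were scaling, eBayes options, array weights, a replicate block, each array left out, other probe set choices and other limits. The number of arrays limits the precision.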

Additional observations from a re-analysis of the deposited data

Results flagged for a closer look

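In 3 of 68 sets of 4 values 1 array stood far from the rest of its group by Dixon's test, where chance flags about 1 in 20. LPA4-KO replicate 3 was low for Mrps22 at 1416595_at (8.21, the next array at 8.38). WT replicate 2 was high for Mrpl39 at 1448909_a_at (9.945, the next at 9.776). LPA4-KO replicate 4 was low for Mrpl18 at 1448373_at (8.774, the next at 8.913). The 3 flags fall on 3 different arrays.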

How the results depend on the processing

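The number of arrays and the unknown upstream processing limit these results, and quantile normalization moved counts furthest. The count of members called, 0 over all genes and 0 over all probe sets, was 15 and 60 after quantile normalization, 2 and 1 after median centring, 3 and 3 without a trend, 1 and 2 with array weights, 2 and 1 by a plain equal-variance test, 5 and 4 above the median level, 7 and 8 among varying ones, and 5 and 5 at an adjusted p under 0.10. Robust eBayes gave 3 genes. In the same order 51.9% of all genes and 56.4% of all probe sets were called after quantile normalization (19.7% and 38.5% of members), 1.23% and 0.810% after centring, 1.45% and 0.996% without a trend, 1.98% and 1.53% with weights, 0.879% and 0.412% by the plain test, 5.44% and 3.41% above the median level, 21.3% and 18.8% among varying ones, 4.85% and 3.22% at 0.10, and 1.44% of genes with robust eBayes. Leaving out 1 array gave 0 to 2 genes and 0 to 2 probe sets. In the fit of varying genes, 7 became 11 with array weights (29.3% of varying genes called) and 2 to 7 with 1 array left out. The 3 other translation genes became 33 after quantile normalization, 0 with the replicate block, 1 by the plain test, 5 above the median level, 5 among varying genes, 7 at 0.10, and 0 to 1 with 1 array left out. Median differences moved to 0.016, 0.017 and 0.015 (all, large, small) after quantile normalization and to 0.0046, 0.0046 and 0.0046 after centring. The median of varying members was 0.094 when each gene took the mean over its probe sets, and with 1 array left out 0.14 to 0.20. The small-subunit median was 0.00020 to 0.00029 with 1 array left out. Signs turned in Mrpl13 (-0.0055 with array weights, -0.041 to 0.073 with 1 array left out), Mrpl15 (-0.031 with the mean and -0.42 with the widest probe set), Mrpl9 (-0.0068 with the mean, -0.034 to 0.065), Mrps6 (-0.15 to 0.056), Mrps14 (-0.0034 after quantile normalization) and Mrps34 (0.013 and 0.0043). The cause of these moves was not tested. Same-numbered arrays of the genotypes correlated from -0.18 to 0.24 in their deviations, so the numbers were not read as pairs, and the replicate block left 0 members called over all genes and 6 in varying genes. Scaling within the varying genes, added after seeing the data, gave 9 (centring) and 8 (quantile) called members. No filter on dim signal or scan date was available.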
